A study of Macaca fascicularis with 23 samples.

Results

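Livers of cynomolgus monkeys that had received 400 mg/kg/day of ciprofibrate over 4 days were compared with livers of monkeys that had received vehicle alone over the same time, over all 12558 probe sets that are not controls. The comparison rests on 4 of the 23 arrays of the series, 2 from treated and 2 from vehicle animals, each array from a different animal and chosen by its title. For the later time point, 4 animals given 400 mg/kg/day for 15 days and 3 given vehicle for 15 days were set beside them. The remaining 12 animals received 3, 30 or 150 mg/kg/day for 15 days and entered only the estimate of the spread between animals. Per the labels' protocols, a piece of the right lateral lobe was frozen and its total RNA was extracted with TRIzol. The labels give no age, sex or route of dosing.

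Ciprofibrate is a fibrate, a lipid-lowering drug that binds and activates the nuclear receptor PPAR-alpha. In hepatocytes this receptor pairs with RXR on DNA and switches on genes for fatty acid uptake, mitochondrial and peroxisomal beta-oxidation and ketone body formation. In rats and mice, fibrates also make peroxisomes multiply and the liver grow, whereas primates are known to respond more weakly in this respect. A comparison at 4 days asks which liver transcripts differ early in dosing with the highest dose.

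The values are probe set intensities, which the authors had scaled so that all arrays share a common level. Differences are given as the mean of log2(intensity + 16) in treated minus that in vehicle animals, with a standard error (SE), so a difference of 1 is a doubling for bright probe sets and understates the change of dim ones. The arrays carry human probes, so levels were compared within a probe set only, and the match of each probe to the monkey transcript is unknown here. A probe set was called when limma's moderated test, fitted to all 7 groups, gave an adjusted p under 0.05. Each gene is represented by its brightest probe set. Since each group has 2 animals, a gene is also given as above when both treated animals exceeded both vehicle animals, and as below in the opposite case.

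The 4 arrays had medians of 62.6 and 57.3 in treated and 64.2 and 63.2 in vehicle animals. Across the 7535 probe sets at or above the 40th percentile of intensity, the treated arrays correlated at r = 0.915 with each other. The vehicle arrays correlated at r = 0.921. With the arrays of the other group, each of the 4 correlated at a mean r of 0.898 to 0.904. The 5' over 3' ratio of the ACTB control probe sets was 1.02 and 1.21 in treated and 0.988 and 0.748 in vehicle animals, and that of GAPDH was 1.17 and 0.974 in treated and 0.947 and 0.993 in vehicle animals. The ACTB ratio was thus above in treated animals, and its part in the results below was not tested. ACTB itself, a cytoskeletal actin often used as a control, had 2259.0 and 2989.8 in treated and 2164.6 and 1955.7 in vehicle animals. GAPDH, a glycolytic enzyme used likewise, had 3162.3 and 3051.5 in treated and 3060.2 and 3204.4 in vehicle animals, a difference of -0.01 ± 0.28 (SE).

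After 4 days, 4 enzymes of fatty acid and ketone body metabolism, 3 redox enzymes and 1 subunit of the respiratory chain rose, and 1 plasma protease inhibitor fell. In all, 12 probe sets were called, of which 10 rose (0.0796% of those tested) and 2 fell (0.0159%). The 10 that rose stand for 8 genes, NQO1, AKR1B10, HADHB, ACAA2, COX5A, ECH1, BDH1 and PRDX4, and 2 probe sets that list several genes each. PZP was the gene that fell, beside another probe set that lists several genes. At an unadjusted p under 0.05 there were 734 probe sets, where 627.9 would be expected with no difference at all. The count rests on every one of the 4 animals. It was 1 without the first treated animal, 4 without the second, 2 without the first vehicle animal and 4 without the second. ACAA2 was called in 3 of these 4 fits, NQO1 and AKR1B10 in 2 each, and the other 6 genes in none. Fitted to the 4-day arrays alone, with no spread borrowed from the other groups, no probe set was called and 1154 had an unadjusted p under 0.05.

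**Figure D1:**
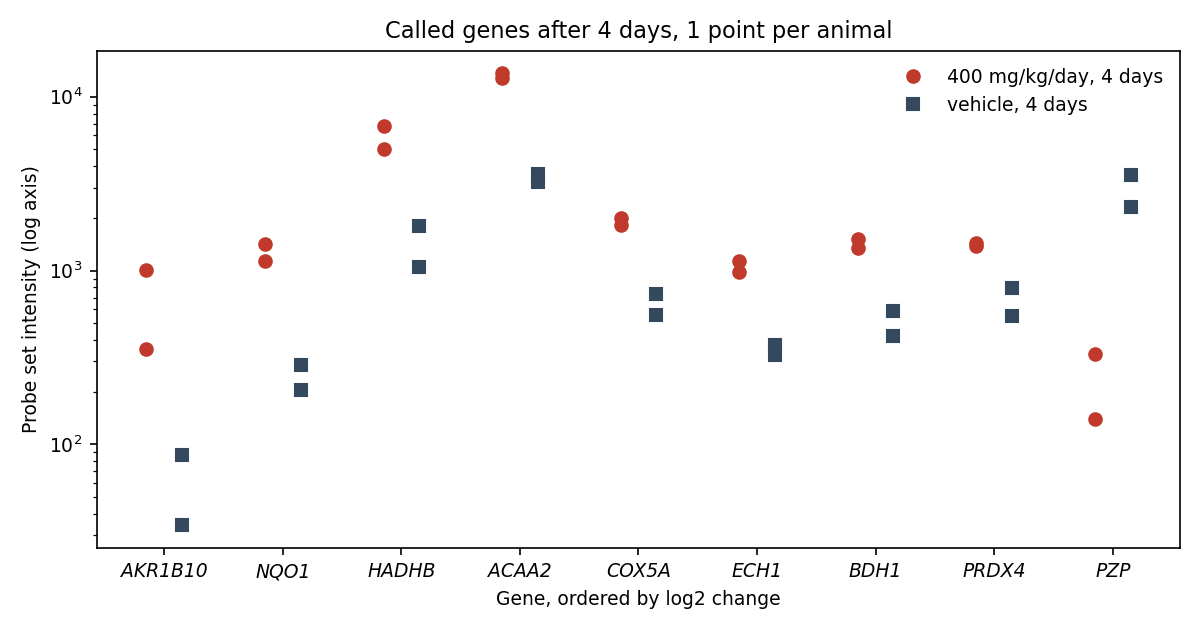
Probe set intensity (log axis) of the 9 called genes in each animal, with treated animals as red circles and vehicle animals as dark squares. In every gene the 2 treated points lie on the same side of both vehicle points: above for 8 genes and below for PZP, whose treated animals read 329.8 and 139.3.

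Of the genes called, 2 encode thiolases, which carry out the last step of each turn of mitochondrial beta-oxidation. ACAA2, the mitochondrial 3-ketoacyl-CoA thiolase that releases acetyl-CoA, had intensities of 13631.5 and 12744.6 in treated and 3613.1 and 3252.8 in vehicle animals. It rose by 1.94 ± 0.26 (adjusted p = 0.0023), or 3.83-fold, with treated animals far apart from vehicle animals and close to each other. HADHB, the thiolase subunit of the trifunctional protein for long chains, had 5005.8 and 6765.7 in treated and 1813.7 and 1050.5 in vehicle animals. It rose by 2.06 ± 0.38 (adjusted p = 0.0272). ECH1, a dienoyl-CoA isomerase found in peroxisomes and mitochondria, had 1131.3 and 987.4 in treated and 329.0 and 373.7 in vehicle animals and rose by 1.55 ± 0.29 (adjusted p = 0.0272). BDH1, the mitochondrial enzyme that forms the ketone body 3-hydroxybutyrate, had 1512.0 and 1357.1 in treated and 583.4 and 422.4 in vehicle animals and rose 2.83-fold (SE 0.30 on the log2 scale, adjusted p = 0.0438, and 0.0713 with the replicate number as a block). In these 4 genes the lowest treated animal exceeded the highest vehicle animal by a wide margin.

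COX5A, a nuclear-encoded subunit of cytochrome c oxidase in the respiratory chain, had 1840.8 and 1999.4 in treated and 558.6 and 737.8 in vehicle animals and rose by 1.56 ± 0.28 (adjusted p = 0.0211). NQO1, a quinone reductase and a standard target of the transcription factor NRF2, had 1418.1 and 1139.5 in treated and 206.3 and 288.3 in vehicle animals. Its rise of 2.31 ± 0.33 (adjusted p = 0.00254) is 4.95-fold. AKR1B10, an aldo-keto reductase that detoxifies aldehydes, showed the largest rise among called genes, 3.10 ± 0.52 (adjusted p = 0.018), with 1012.1 and 353.9 in treated and 34.3 and 86.6 in vehicle animals. Its 2 treated animals differed from each other more than those of the other genes that rose. PRDX4, a peroxiredoxin of the endoplasmic reticulum, had 1436.5 and 1381.0 in treated and 791.1 and 550.1 in vehicle animals and rose by 1.08 ± 0.20 (adjusted p = 0.0272).

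PZP, a large plasma protease inhibitor related to alpha-2-macroglobulin, had 329.8 and 139.3 in treated and 2319.7 and 3539.7 in vehicle animals. On the log2 scale it fell by 3.64 ± 0.66 (adjusted p = 0.0245), a larger change than that of any gene that rose. Among the probe sets that list several genes, 32392_s_at had 6166.2 and 6209.9 in treated and 2350.5 and 2840.9 in vehicle animals and rose by 1.25 ± 0.22 (adjusted p = 0.0208). Probe set 1759_f_at had 3820.5 and 3256.6 in treated and 1149.6 and 1288.2 in vehicle animals and rose by 1.52 ± 0.30 (adjusted p = 0.0424). Both are bright, whereas 126_s_at, which fell, was dim in every animal, with 1.3 and 1.6 in treated and 27.9 and 20.3 in vehicle animals. In these 3 probe sets the genes that contribute cannot be told apart. Whether fewer cells of a type or less RNA per cell gives a lower value cannot be told apart in any of these results, since whole tissue was measured.

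Genes of mitochondrial fatty acid oxidation were higher in treated animals across most steps of the pathway. Of the 19 measured genes, 15 were above and 1 below, where 16.4% of all 8226 genes were above and 22.6% below, and 2 passed the test, ACAA2 and HADHB. The median difference was 0.89, against -0.05 over all genes, and it was 0.87 in the first and 0.94 in the second treated animal. With any of the 4 animals left out, or under another scaling, pseudocount or filter, the median lay between 0.77 and 1.01.

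Within the chain of enzymes, the values were as follows. SLC22A5, the carnitine transporter of the cell surface, had 354.3 and 623.4 in treated and 194.9 and 203.4 in vehicle animals. CPT1A, which joins fatty acids to carnitine for entry into mitochondria, had 203.3 and 269.5 in treated and 184.3 and 148.5 in vehicle animals, a smaller difference of 0.46 ± 0.51. SLC25A20, the carnitine-acylcarnitine carrier, had 274.8 and 272.6 in treated and 165.3 and 181.5 in vehicle animals. These entry steps were above in treated animals, but none passed the test (adjusted p = 0.779 for SLC22A5 and 0.958 for SLC25A20). ACADVL, the acyl-CoA dehydrogenase for very long chains, had 3658.9 and 3577.4 in treated and 1877.2 and 1697.5 in vehicle animals, a difference of 1.01 ± 0.21 that missed the threshold at an adjusted p of 0.0509. ACADM and ACADS, which take medium and short chains, differed by 0.93 ± 0.24 and 1.43 ± 0.37 (adjusted p = 0.202 for each). ETFA and ETFB, the subunits of the flavoprotein that takes electrons from these dehydrogenases, differed by 0.89 ± 0.24 and 1.62 ± 0.36, and ETFDH, which passes them to the respiratory chain, by 1.01 ± 0.31. All 3 electron carriers were thus above, with adjusted p of 0.245, 0.0807 and 0.387.

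HADHA, the partner of HADHB in the trifunctional protein, had 2220.2 and 2609.7 in treated and 987.8 and 900.9 in vehicle animals, a difference of 1.34 ± 0.29 (adjusted p = 0.0601). HADH, which oxidises short and medium chain hydroxyacyl-CoA, had 343.8 and 255.0 in treated and 202.4 and 161.1 in vehicle animals, a difference of 0.67 ± 0.27 (adjusted p = 0.687), and a second probe set of the gene differed by 1.32. ACSL1, which activates long-chain fatty acids, and DECR1, a dienoyl-CoA reductase, were above by 0.83 ± 0.35 and 0.45 ± 0.30. The other 4 members were not above. ECHS1, the short-chain enoyl-CoA hydratase, had 674.0 and 712.1 in treated and 689.9 and 555.3 in vehicle animals, so the groups overlapped. ECI1, an enoyl-CoA isomerase, overlapped too, with 242.0 and 297.9 in treated and 171.7 and 382.9 in vehicle animals. ACADSB, which acts on branched short chains from amino acids, was below, with 4727.8 and 4678.4 in treated and 5308.2 and 5779.8 in vehicle animals. ACADL was dim and scattered, with 56.4 and 5.7 in treated and 50.5 and 39.9 in vehicle animals.

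**Figure D2:**
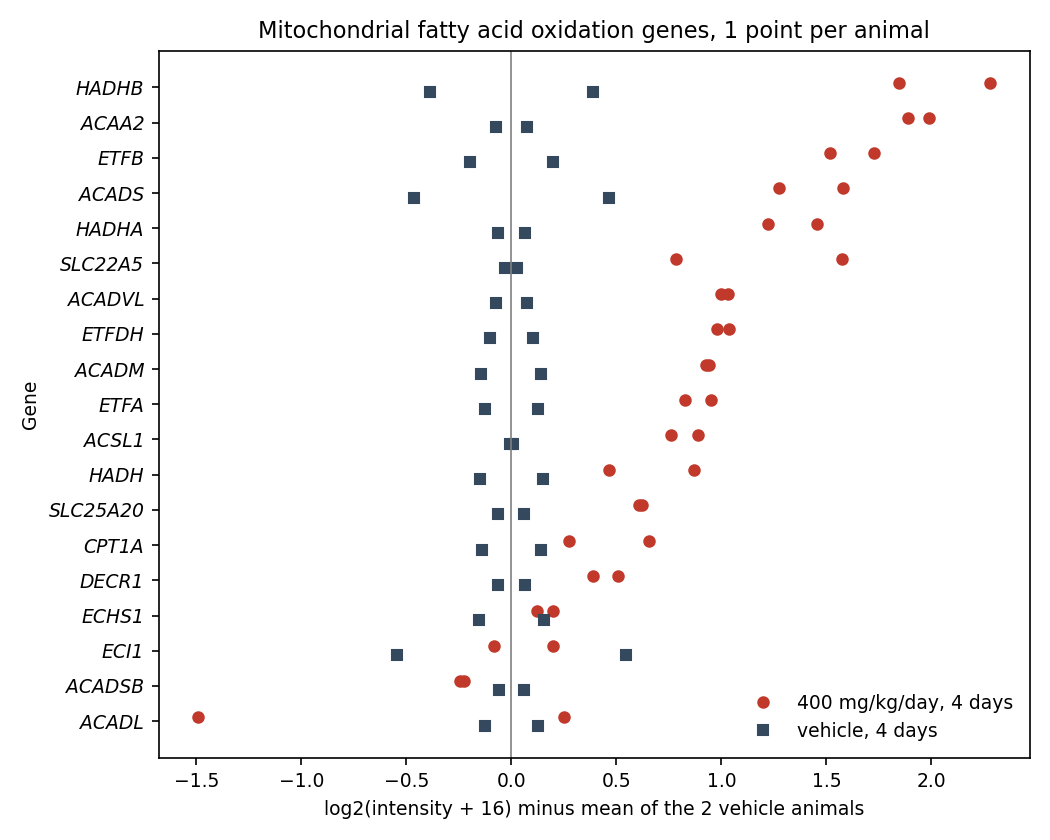
Each of the 19 mitochondrial fatty acid oxidation genes measured, as log2(intensity + 16) in each animal minus the mean of the 2 vehicle animals, with treated animals as red circles and vehicle animals as dark squares. In 15 genes, from HADHB at the top to DECR1, both treated points lie to the right of both vehicle points, and ACADL at the bottom has 1 treated animal far to the left.

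Other genes known as PPAR-alpha targets were also higher in treated animals. The list of 19 measured targets shares ACAA2, HADHB, HADHA, ACADM, ACSL1, SLC25A20 and CPT1A with the mitochondrial list. Of the 19, 17 were above (89.5%, against 16.4% of all genes) and none below (against 22.6%), with a median difference of 1.12. Just ACAA2 and HADHB passed the test. Larger differences than theirs were measured where vehicle animals scattered. FADS2, the delta-6 desaturase of polyunsaturated fatty acids, had 1666.2 and 1155.8 in treated and 28.9 and 210.9 in vehicle animals, a difference of 3.80 ± 0.83 (adjusted p = 0.0716). FABP1, the fatty acid binding protein of the liver cytosol, had 10504.3 and 9330.1 in treated and 2150.6 and 828.3 in vehicle animals, a difference of 2.87 ± 0.69 (adjusted p = 0.134). SCD, the desaturase that makes oleate, had 724.9 and 539.4 in treated and 35.8 and 125.7 in vehicle animals, a difference of 2.90 ± 0.76 (adjusted p = 0.223). In all 3 genes the vehicle animals differed from each other by more than the treated animals did on the log2 scale.

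PLIN2, a coat protein of lipid droplets, had 636.8 and 556.6 in treated and 287.4 and 102.4 in vehicle animals, a difference of 1.69 ± 0.54 (adjusted p = 0.419). VNN1, the pantetheinase vanin, had 224.4 and 148.7 in treated and 72.7 and 68.4 in vehicle animals (adjusted p = 0.469). ME1, malic enzyme, a source of NADPH, had 350.9 and 318.2 in treated and 134.4 and 156.2 in vehicle animals (adjusted p = 0.434). PDK4, the kinase that shuts pyruvate dehydrogenase, and G0S2, an inhibitor of triglyceride lipase, were above by 0.86 ± 0.50 and 0.57 ± 0.45. TXNIP, which binds thioredoxin, was 906.1 and 4814.6 in treated and 531.8 and 668.7 in vehicle animals, so its difference of 1.78 ± 0.70 comes mostly from the second treated animal. The fatty acid transporter CD36 and the peroxisomal bifunctional enzyme EHHADH were dim and overlapped. CD36 had 24.0 and 5.2 in treated and 18.2 and 27.1 in vehicle animals, and EHHADH had 26.8 and 11.7 in treated and 4.8 and 43.1 in vehicle animals. The sign of the difference of CD36, EHHADH, ACADL and ECI1 turned when single animals were left out.

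In peroxisomes, 5 of 13 genes were above (38.5%, against 16.4% of all genes) and 1 below (7.69%, against 22.6%). The median difference was 0.13, with 0.71 in the first and 0.018 in the second treated animal. With left-out animals and other processing, this median lay between 0.018 and 0.88. ECH1 was called. ACAA1, the peroxisomal thiolase, had 2317.2 and 2209.6 in treated and 1241.1 and 1204.0 in vehicle animals, a difference of 0.88 ± 0.23 (adjusted p = 0.202), and a second probe set of the gene differed by 0.86. HSD17B4, the D-bifunctional protein of peroxisomes, had 1812.1 and 1682.9 in treated and 901.6 and 878.9 in vehicle animals (adjusted p = 0.387). ABCD3, a transporter of the peroxisomal membrane, had 527.7 and 467.2 in treated and 115.6 and 308.4 in vehicle animals. CAT, the catalase that breaks down the hydrogen peroxide peroxisomes make, was below, with 817.4 and 731.1 in treated and 883.0 and 1360.6 in vehicle animals, a difference of -0.50 ± 0.47. Among the others, 1 further gene was above and 7 overlapped between the groups.

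Of 17 genes for making fatty acids and triglycerides, 8 were above (47.1%, against 16.4% of all genes) and 2 below (11.8%, against 22.6%), and none passed the test. SREBF1, the transcription factor for lipid synthesis, had 843.5 and 1418.2 in treated and 632.0 and 533.7 in vehicle animals, a difference of 0.90 ± 0.24 (adjusted p = 0.247). In cholesterol synthesis and uptake, 6 of 16 were above (37.5%, against 16.4% of all genes) and 2 below (12.5%, against 22.6%), with a median of 0.31. INSIG1, which holds SREBP proteins in the endoplasmic reticulum, had 595.9 and 542.2 in treated and 216.6 and 205.1 in vehicle animals, a difference of 1.37 ± 0.53 (adjusted p = 0.635). SREBF2, the factor for cholesterol genes, differed by 0.91 ± 0.48, and TM7SF2, a sterol reductase, by 0.74 ± 0.41.

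Among 11 genes of bile acid synthesis and transport, 2 were above and 2 below (18.2% each, against 16.4% and 22.6% of all genes), none called. CYP27A1, which starts the alternative route of bile acid synthesis, had 551.5 and 400.4 in treated and 1115.0 and 1343.8 in vehicle animals, a difference of -1.35 ± 0.47 (adjusted p = 0.517). SLC27A2, an acyl-CoA synthetase for very long chains and bile acids, was above, with 1492.1 and 1187.6 in treated and 604.8 and 580.4 in vehicle animals. NR0B2, the repressor SHP, was above by 1.10 ± 0.47. Of 15 genes for apolipoproteins and lipoprotein remodelling, 2 were above (13.3%) and 4 below (26.7%), none called. APOA1, the main protein of HDL, had 10069.5 and 10906.1 in treated and 12813.0 and 14462.3 in vehicle animals, a difference of -0.38 ± 0.24. LCAT, which esterifies cholesterol in HDL, differed by 0.79 ± 0.25 and PLTP, the phospholipid transfer protein, by -0.56 ± 0.22 (adjusted p = 0.419 and 0.646).

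The oxidative stress list had 3 of 27 genes called, NQO1, AKR1B10 and PRDX4, while its median difference was 0.01. In it, 9 were above (33.3%, against 16.4% of all genes) and 2 below (7.41%, against 22.6%). TXN, thioredoxin, had 1932.9 and 1578.7 in treated and 794.0 and 706.1 in vehicle animals, a difference of 1.20 ± 0.25 that missed the threshold at an adjusted p of 0.0509. Of 22 drug-metabolising enzymes, 7 were above (31.8%, against 16.4% of all genes) and 5 below (22.7%, against 22.6%), and none was called. CYP3A4, the main drug-oxidising cytochrome P450 of the human liver, had 3543.9 and 4083.2 in treated and 1629.8 and 1639.1 in vehicle animals, a difference of 1.21 ± 0.34 (adjusted p = 0.269). CYP2C8 and the epoxide hydrolase EPHX1 differed by 1.04 ± 0.33 and 0.71 ± 0.27. P450 genes are close relatives, so probes of 1 member can take up RNA of another. CYP2E1, the ethanol-oxidising P450, went the other way, with 4234.8 and 4541.2 in treated and 13625.4 and 11956.2 in vehicle animals, a difference of -1.54 ± 0.63 (adjusted p = 0.715). A second probe set of CYP2E1 was also below, at -1.42.

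Subunits of the proteasome, the complex that degrades tagged proteins, were higher as a group without a single call. Of 31 measured, 21 were above (67.7%, against 16.4% of all genes) and 1 below (3.23%, against 22.6%). The median difference was 0.52, and it was 0.55 in the first and 0.56 in the second treated animal. Left-out animals and other processing kept this median between 0.48 and 0.68. PSMB7, a catalytic subunit, had 627.9 and 638.6 in treated and 233.9 and 301.3 in vehicle animals, a difference of 1.21 ± 0.26 (adjusted p = 0.0601), although a second, dimmer probe set of the gene differed by 0.34 with overlap. PSMB5, another catalytic subunit, differed by 0.75 ± 0.19, and the regulatory subunits PSMD8 and PSMD14 by 1.04 ± 0.26 and 1.48 ± 0.38. A second, dimmer probe set of PSMD8 differed by 0.47 ± 0.63 with overlap.

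Oxidative phosphorylation had 29 of 54 genes above (53.7%, against 16.4% of all genes) and 3 below (5.56%, against 22.6%). Its median was 0.28, and COX5A was the gene called. ATP5MC3, a subunit of the ATP synthase ring, had 2747.4 and 2998.3 in treated and 1255.7 and 1476.4 in vehicle animals (adjusted p = 0.259). UQCRQ, of complex III, differed by 0.69 ± 0.20. COX7C, of the same complex as COX5A, was below, with 99.1 and 121.7 in treated and 283.1 and 295.7 in vehicle animals, a difference of -1.28 ± 0.35 (adjusted p = 0.247). Cytosolic ribosomal proteins had a median of 0.05, with 9 of 40 above (22.5%, against 16.4% of all genes) and 6 below (15.0%, against 22.6%). That median changed sign after quantile normalization and without the first vehicle animal.

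**Figure D3:**
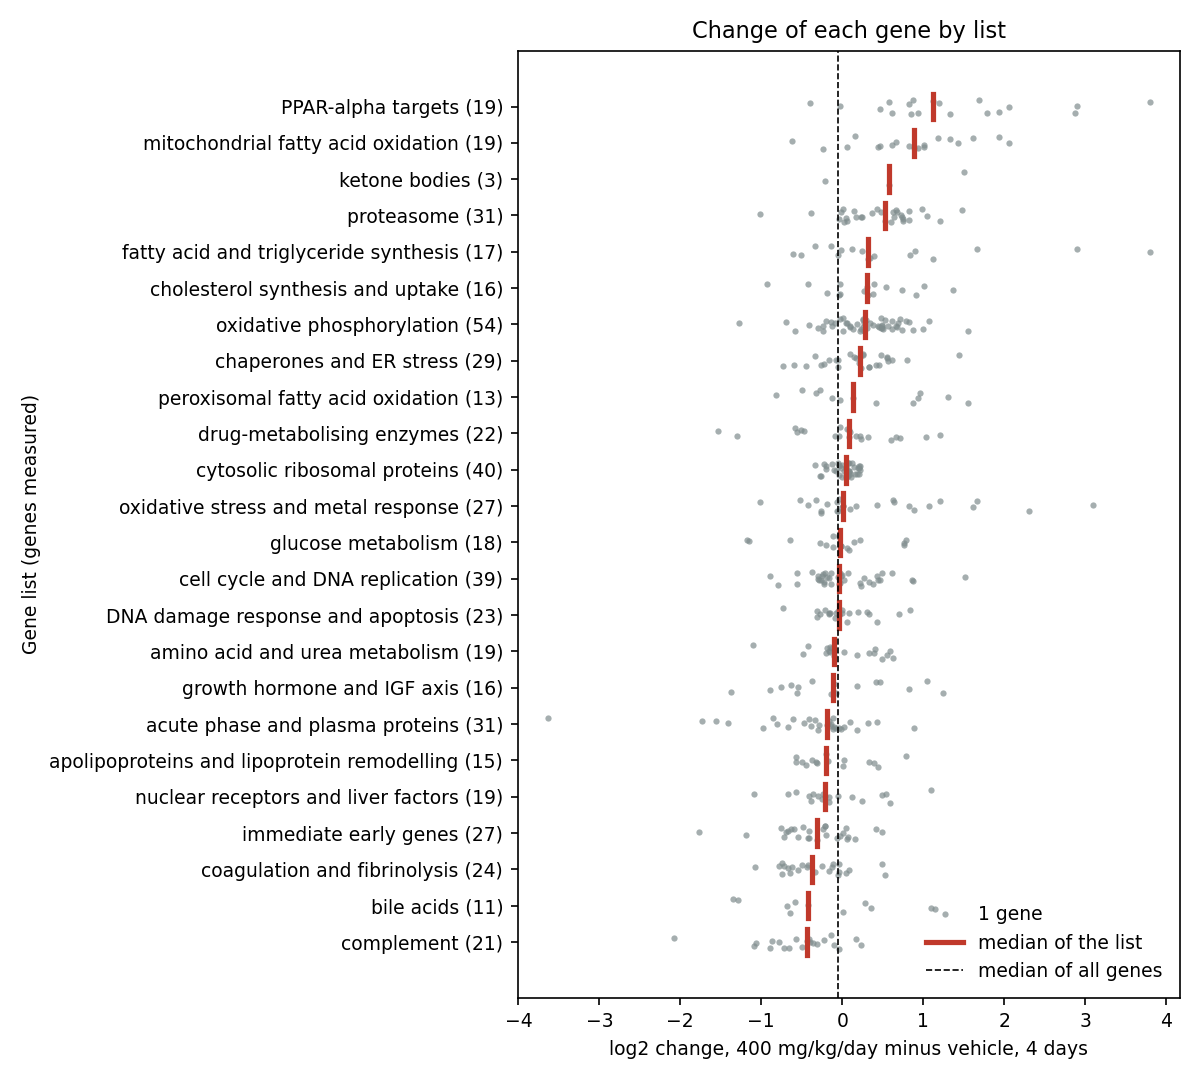
Log2 difference of each measured gene (grey points) in 24 pathway lists, ordered by the list median (red bar), with treated minus vehicle animals on the horizontal axis and the median of all genes as a dashed line at -0.05. PPAR-alpha targets (1.12), mitochondrial fatty acid oxidation (0.89) and the proteasome (0.52) lie to the right, and complement (-0.44) and coagulation (-0.38) to the left, as do bile acids (-0.42), whose median was 0.18 without the second treated animal.

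Genes in the lists of complement, coagulation and acute phase and plasma proteins were mostly lower. The apolipoprotein list above, also of proteins in plasma, was near the background with 26.7% below. Of 21 complement genes, 14 were below (66.7%, against 22.6% of all genes) and none above (against 16.4%), with a median of -0.44. Of 24 genes of coagulation and fibrinolysis, 15 were below (62.5%) and 1 above (4.17%), with a median of -0.38. Of 31 acute phase and plasma proteins, 16 were below (51.6%) and 2 above (6.45%), with a median of -0.19. PZP was called and no other member of these lists passed the test. The complement median lay between -0.57 and -0.37, and the coagulation median between -0.47 and -0.30, without any of the 4 animals and under the other processing.

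CFB, complement factor B of the alternative pathway, had 4204.1 and 4237.7 in treated and 6956.7 and 6977.5 in vehicle animals, a difference of -0.72 ± 0.20 (adjusted p = 0.258). C1R, a protease of the classical pathway, had 356.9 and 381.9 in treated and 815.7 and 798.4 in vehicle animals. C8A, part of the membrane attack complex, had 561.2 and 526.7 in treated and 981.2 and 1036.2 in vehicle animals. Within each group these 3 genes were close between animals. CFHR4, a factor H related protein, had 347.9 and 151.3 in treated and 971.6 and 1087.3 in vehicle animals, the largest complement difference at -2.08 ± 0.66. Since factor H genes resemble each other, its probes may read several of them.

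In coagulation, F12, factor XII of the contact pathway, had 1171.9 and 909.7 in treated and 2165.6 and 2221.9 in vehicle animals, a difference of -1.08 ± 0.29 (adjusted p = 0.245). F7, factor VII, had 441.8 and 531.6 in treated and 973.9 and 690.4 in vehicle animals. HGFAC, a protease that activates hepatocyte growth factor, had 990.3 and 956.2 in treated and 1890.5 and 1430.8 in vehicle animals (adjusted p = 0.56). Of the plasma proteins, ITIH2, a heavy chain of the inter-alpha-trypsin inhibitors, had 1366.0 and 1004.0 in treated and 3184.3 and 3093.3 in vehicle animals, a difference of -1.41 ± 0.30 (adjusted p = 0.0601). SPP2, a phosphoprotein related to fetuin, differed by -1.74 ± 0.48 and HPX, the heme carrier hemopexin, by -0.86 ± 0.35 (adjusted p = 0.254 and 0.717). SHBG, the carrier of sex steroids, was very even within groups, with 702.7 and 693.2 in treated and 1562.1 and 1561.8 in vehicle animals, a difference of -1.14 ± 0.27 (adjusted p = 0.134).

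The growth hormone and IGF axis had 4 of 16 genes below and 3 above, a share close to the background in both directions, and none was called. IGFALS, the acid-labile subunit, had 954.1 and 369.5 in treated and 2104.1 and 1172.7 in vehicle animals, a difference of -1.38 ± 0.42 (adjusted p = 0.387). IGFBP3, the main binding protein, had 537.3 and 500.0 in treated and 1136.8 and 843.2 in vehicle animals, and IGF1 itself had 821.5 and 444.9 in treated and 1144.8 and 934.6 in vehicle animals. Their adjusted p were 0.269 and 0.912. PRLR, the prolactin receptor, was above, with 71.1 and 59.6 in treated and 23.3 and 22.9 in vehicle animals, a difference of 1.05 ± 0.56.

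Further genes were chosen by rank alone. PEMT, which methylates phosphatidylethanolamine to phosphatidylcholine, had 1609.4 and 2394.7 in treated and 824.5 and 749.7 in vehicle animals, a difference of 1.30 ± 0.27 (adjusted p = 0.0509). GLDC, the glycine decarboxylase of the mitochondrial cleavage system, had 18.7 and 9.1 in treated and 191.1 and 160.7 in vehicle animals, a difference of -2.70 ± 0.63 (adjusted p = 0.126). GNMT, which uses glycine to take up methyl groups from S-adenosylmethionine, had 939.1 and 981.9 in treated and 2083.2 and 2065.8 in vehicle animals, a difference of -1.10 ± 0.22 (adjusted p = 0.0509). Both were low in each treated animal, with a wide gap to the vehicle animals. CHI3L1, a secreted chitinase-like glycoprotein, had 116.2 and 89.3 in treated and 529.2 and 1474.8 in vehicle animals (adjusted p = 0.246). PSD3, an exchange factor for ARF proteins, had 196.6 and 222.0 in treated and 491.4 and 496.9 in vehicle animals (adjusted p = 0.134). MYRF, a membrane-bound transcription factor, and EPHB1, an ephrin receptor, read between 17.3 and 24.9 in treated animals, under the intensity of 39.7 that marks the 40th percentile of probe sets, and between 109.0 and 184.0 in vehicle animals. At 15 days the differences were -0.15 in PSD3, -0.16 in MYRF and 0.16 in EPHB1. They were -1.33 in GLDC, -0.93 in GNMT, -0.81 in CHI3L1 and 0.06 in PEMT, and GNMT alone was called there. From 4 to 15 days the vehicle animals differed by -1.31 in EPHB1, -0.74 in MYRF and -0.38 in PSD3. They differed by -1.45 in GLDC, -0.76 in GNMT, -1.60 in CHI3L1 and 1.26 in PEMT.

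Amino acid and urea metabolism, to which GNMT belongs, had 3 of 19 genes above (15.8%, against 16.4% of all genes) and 5 below (26.3%, against 22.6%). PRODH, proline dehydrogenase, was above with 1072.9 and 1190.0 in treated and 659.1 and 843.7 in vehicle animals. A second, dim probe set of PRODH differed by -0.26 with overlap. Glucose metabolism had 4 of 18 above (22.2%) and 3 below (16.7%). PGK1 of glycolysis and PYGL, the glycogen phosphorylase of the liver, were above by 0.77 ± 0.27 and 0.79 ± 0.31. A second, dimmer probe set of PGK1 differed by 0.28 with overlap. The medians of these lists were -0.10 and -0.03 and changed sign without single animals, the second also with equal array medians.

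Immediate early genes are transcribed within minutes of a stimulus. Of 27 members, 13 were below (48.1%, against 22.6% of all genes) and none above (against 16.4%). Their median was -0.32, and none passed the test. FOSB, a partner of JUN in AP-1, had 100.2 and 112.9 in treated and 193.6 and 354.7 in vehicle animals, a difference of -1.19 ± 0.65 (adjusted p = 0.954). JUND, another AP-1 subunit, had 2197.6 and 1565.4 in treated and 2271.2 and 3250.3 in vehicle animals, and ZFP36, which destabilises AU-rich mRNAs, had 275.4 and 330.9 in treated and 449.8 and 372.9 in vehicle animals. NR4A2, an orphan nuclear receptor, was dim, with 4.9 and 5.7 in treated and 73.0 and 42.8 in vehicle animals. A second probe set of NR4A2, also dim, differed by 0.25 with overlap. In other members the spread within a group was as large as any gap between the groups. EGR1, a zinc finger factor, had 30.7 and 520.3 in treated and 260.0 and 35.2 in vehicle animals, and DUSP1, a MAP kinase phosphatase, had 499.6 and 1424.0 in treated and 1531.6 and 1140.5 in vehicle animals. The sign of both turned without single animals.

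PPARA, the receptor that ciprofibrate activates, had 602.4 and 710.1 in treated and 1105.3 and 694.6 in vehicle animals, a difference of -0.41 ± 0.27 with overlapping groups. Among 19 nuclear receptors and liver transcription factors, 3 were above (15.8%, against 16.4% of all genes) and 4 below (21.1%, against 22.6%). ESRRA, an orphan receptor that drives mitochondrial genes, had 472.7 and 298.9 in treated and 553.6 and 575.2 in vehicle animals (adjusted p = 0.694). Of 29 chaperone and endoplasmic reticulum stress genes, 9 were above (31.0%) and 5 below (17.2%). HSPB1, a small heat shock protein, had 1371.1 and 1945.3 in treated and 711.1 and 494.2 in vehicle animals (adjusted p = 0.934). Cell cycle genes had 7 of 39 above (17.9%) and 5 below (12.8%). Among them PLK1, a mitotic kinase, had 164.3 and 229.4 in treated and 52.5 and 62.2 in vehicle animals (adjusted p = 0.58). DNA damage and apoptosis genes had 3 of 23 above and none below. The medians of these last lists were both -0.04 and changed sign under other scalings.

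Of 12 markers of stellate cells and fibroblasts, 6 were below (50.0%, against 22.6% of all genes) and none above, with a median of -0.63 and summed intensities of 1769.2 and 1439.3 in treated and 2773.9 and 2639.3 in vehicle animals. VIM, the intermediate filament of mesenchymal cells, had 668.8 and 667.4 in treated and 1394.1 and 1394.3 in vehicle animals, a difference of -1.04 ± 0.33 (adjusted p = 0.402). The collagen chains COL3A1, COL1A2 and COL4A1 differed by -1.13 ± 0.48, -0.99 ± 0.45 and -0.98 ± 0.45. Of 10 Kupffer cell and macrophage markers, 3 were below, a share of 30.0% and near that of all genes, and none above, with sums of 2952.9 and 3358.0 in treated and 5259.1 and 4025.9 in vehicle animals. CD14, a receptor for bacterial lipopolysaccharide, accounts for much of them, with 1546.5 and 1979.5 in treated and 3559.0 and 2635.9 in vehicle animals, and CSF1R, the macrophage growth factor receptor, differed by -0.75 ± 0.31. Red cell markers had 3 of 5 below, with sums of 1831.7 and 3482.2 in treated and 5357.1 and 4976.2 in vehicle animals. HBB, beta-globin, had 1266.7 and 2978.0 in treated and 4562.0 and 4155.0 in vehicle animals, and ALAS2, the erythroid heme synthesis enzyme, had 326.4 and 322.2 in treated and 547.9 and 567.1 in vehicle animals.

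Hepatocyte markers were bright in all 4 animals, with sums of 67636.2 and 68285.3 in treated and 83577.3 and 83759.4 in vehicle animals. Of these 11 markers, none was above and 4 were below (36.4%, against 22.6% of all genes), CYP2E1 and APOA1 among them. The median difference of the markers was -0.14, and CYP2E1 and APOA1 account for much of the gap between the sums. Endothelial markers had 3 of 10 above and 2 below, T and NK cell markers 1 of 12 above and 3 below, B cell markers none of 7 above and 2 below, neutrophil markers 1 of 10 above and 3 below, and cholangiocyte markers none of 6 above and 2 below. Over all genes, 16.4% were above and 22.6% below. No marker passed the test. The part of these cell types in the lower plasma protein, complement and immediate early gene values was not tested.

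Effects at 15 days, in other animals, ran in the same direction for the genes called at 4 days. At 15 days, 72 probe sets rose (0.573%) and 54 fell (0.43%) with 4 animals given 400 mg/kg/day against 3 given vehicle. The total of 126 was 62 without the first vehicle animal of that day and 82 without the first animal given 400 mg/kg/day. All 12 probe sets called at 4 days had the same sign at 15 days, and 10 of them were called there too, which is 83.3% of the 4-day calls and 7.94% of the 15-day calls. AKR1B10 rose by 3.61, NQO1 by 2.46, HADHB by 1.61, ACAA2 by 1.51, COX5A by 1.05, ECH1 by 1.01 and BDH1 by 1.01 at 15 days, and PZP fell by 2.64. The exceptions were PRDX4, which differed by 0.50 (adjusted p = 0.161), and the dim probe set 126_s_at, which differed by -0.05 and which also separated the vehicle animals of the 2 days. From 4 to 15 days the vehicle animals differed by 0.83 in ECH1 and by -1.32 in PZP. In the other called genes they differed by -0.56 to 0.62, and none of these vehicle differences was called.

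Most probe sets called at 15 days had groups that did not overlap at 4 days. Of the 72 probe sets that rose at 15 days, 67 were above at 4 days (93.1%, against 16.1% of all probe sets), with a median of 0.92 at 4 days and 1.20 at 15 days. Of the 54 that fell, 43 were below at 4 days (79.6%, against 22.3% of all), with a median of -0.75 at 4 days and -1.21 at 15 days. FADS2 and FABP1 differed by 4.22 and 3.30 at 15 days and were called there. Over 5462 genes at or above the 40th percentile of intensity, the effects of the 2 days correlated at r = 0.36 and had the same sign in 59.8%, a description across genes, which are not independent. The 2 comparisons share no animal, but all groups share 1 estimate of the spread.

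**Figure D4:**
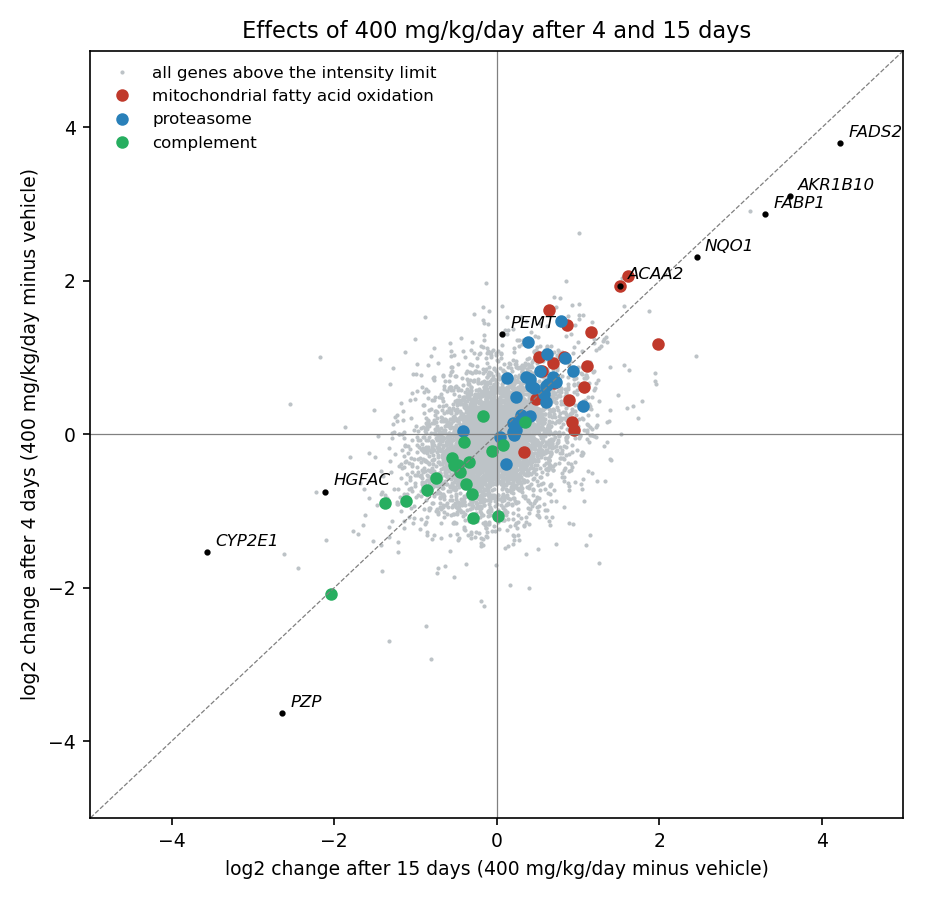
Log2 difference after 4 days (vertical) against that after 15 days (horizontal), each 400 mg/kg/day minus vehicle, for 5462 genes above the intensity limit (grey), with mitochondrial fatty acid oxidation in red, the proteasome in blue, complement in green and 9 genes named. Red and blue points lie mostly at the upper right, green at the lower left, and CYP2E1 and HGFAC lie far to the left of the dashed line of equal effects, at -3.56 and -2.12 after 15 days.

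No probe set was called for a difference between the 15-day and the 4-day effect (0% of those tested), in limma, with 395 at an unadjusted p under 0.05, fewer than the 627.9 expected with no difference, and a smallest adjusted p of 1.00. With these group sizes the median SE of that difference was 0.62, so the absence of calls does not show equal effects. The values of single genes that follow were chosen by rank, except those of CYP2E1, a gene named from its list by its 4-day p. The intervals are not adjusted for the number of probe sets tested. HGFAC had the smallest unadjusted p among genes whose difference was negative, with a 15-day effect of -2.12 set against -0.75 at 4 days, and a difference of -1.37 (95% interval from -2.07 to -0.66). CYP2E1 had a mean of 1479.0 in the 4 treated and 13669.2 in the 3 vehicle animals at 15 days, and its difference between days was -2.03 (95% interval from -3.67 to -0.38). Both were lower at each day. PEMT, at 1.30 after 4 days and 0.06 after 15 days, differed by -1.24 between days (95% interval from -1.94 to -0.54). Its vehicle animals themselves differed between the days by 1.26 (adjusted p = 0.0165). PINK1, the kinase that marks damaged mitochondria, differed by -1.19, and the dim genes LRRTM2 and TMPRSS11D by -1.26 and -2.50.

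In the positive direction, the smallest p-values for a difference between days came from genes that were below at 4 days and above 0 at 15 days. NCK2, an adaptor of tyrosine kinase signalling, had 28.3 and 39.8 in treated and 114.8 and 176.8 in vehicle animals at 4 days, with an effect of -1.68 at 4 days and 1.26 at 15 days. A second, dim probe set of NCK2 went the other way at 4 days, with means of 55.2 in treated and 25.6 in vehicle animals and a difference of 0.80. KPNA3, a nuclear import receptor, EIF1, an initiation factor of translation, TOX, a chromatin protein, and SMIM8, a small membrane protein, differed between days by 2.54, 2.05, 2.14 and 2.11. From 4 to 15 days the vehicle animals themselves differed by -1.36 in NCK2, -1.41 in KPNA3 and -1.05 in EIF1. The vehicle values were -1.36 in TOX and -0.23 in SMIM8, and none of these was called. Vehicle animals of the 2 days differed in 50 probe sets (0.398%), 37 of them higher and 13 lower at 15 days, and this count was 12 without the first and 4 without the second vehicle animal of the 4-day group, and 12 without the first of the 15-day group. A difference between days therefore also holds any difference between the vehicle groups. The ACTB 5' over 3' ratio of the 3 vehicle animals at 15 days was 0.575, 0.540 and 0.606. In the 4 animals given 400 mg/kg/day for 15 days it was 0.552, 0.839, 0.719 and 0.614. At 4 days it was 0.988 and 0.748 in vehicle and 1.02 and 1.21 in treated animals. The part of this ratio in differences between days was not tested.

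The 2 treated animals were about as far apart as the 2 vehicle animals, with a median absolute log2 gap of 0.322 in treated and 0.283 in vehicle pairs among bright probe sets. Among the genes of the lists at or above the intensity limit, EGR1 and TXNIP had the widest gaps between the treated animals. CYP1A1, the P450 induced through the aryl hydrocarbon receptor, had 73.6 and 361.7 in treated and 516.3 and 371.6 in vehicle animals. FASN, the fatty acid synthase, had 1079.0 and 313.0 in treated and 153.1 and 196.9 in vehicle animals, so the size of its difference, 1.66 ± 0.79 (adjusted p = 0.831), rests on the first treated animal. COL1A1 had 55.3 and 210.4 in treated and 92.4 and 63.7 in vehicle animals, the second treated animal being above both vehicle animals and the first below, unlike the collagens above. With 2 animals a group, such genes cannot be assigned to the treatment or to an animal.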

How the data were processed

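Liver RNA was measured on 23 arrays, 1 per animal. The deposited values are probe set intensities on a linear scale, computed by the authors with MAS5, per the submitters' processing notes, which give neither version nor settings. Trimmed means (2% at each end) lay between 150.065 and 150.08 on all arrays, so no further scaling was applied. Of 12625 probe sets, 67 controls were left out. Of the 12558 others, 10943 list 1 gene, 545 several and 1070 none in the platform annotation. Values were analysed as log2(intensity + 16) with limma 3.58.1 in R 4.3.3, as a means model of 7 groups with a variance trend (16 residual and 7.06 prior degrees of freedom), two-sided, with Benjamini-Hochberg adjustment over 12558 probe sets. The script was tested on simulated data. Depth does not apply to arrays, and their number limits the precision. Labels call the animals biological replicates, so p-values measure a spread between animals. That spread is pooled over all 7 groups, and 4 of the 23 animals belong to the 4-day groups. Replicate numbers name different animals in each group. Deviations of same-numbered animals correlated at -0.03.

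Named genes were up to 12 called each way, filled to 10 by unadjusted p among non-overlapping probe sets above the intensity limit, 5 each way for the difference between days, members of 3 lists, and up to 4 of the other lists by p. CYP1A1, FASN and COL1A1 were added after their values were seen. The comparison, the gene lists (614 of 754 genes measured) and the tests were chosen with earlier results of these data known. Alternatives were another pseudocount, an intensity filter, other scalings, other variance models, array weights, the 4-day arrays alone, a replicate block, and leaving out each animal.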

Additional observations from a re-analysis of the deposited data

Results flagged for a closer look

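Of 24 genes checked in the 4 animals given 400 mg/kg/day for 15 days, 4 had an animal far from the others on the log2 scale, by Dixon's test, which chance alone passes in about 1 of 20 groups. FADS2 was lowest in replicate 4, at 647.0, where the nearest animal had 1052.4. HADHA was lowest in the same animal, at 1003.1, with the nearest at 1340.7. CYP2E1 was lowest in replicate 1, at 244.1, with the nearest at 1544.8. PINK1 was highest in replicate 2, at 309.7, with the nearest at 233.5. Groups of 2 or 3 animals, among them both 4-day groups, were not tested.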

How the results depend on the processing

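The count of 12 called probe sets at 4 days (10 rose, 2 fell) was 23 with a pseudocount of 32 or 64 (20 rose), 22 with the intensity filter (19 rose), 73 with array weights (53 rose, 20 fell), 3 without a variance trend (3 rose, 0 fell) and 0 with the 4-day arrays alone (0 rose, 0 fell). With a pseudocount of 1 it was 9, with 1 that fell. Leaving out each animal gave 1 to 4 calls, 1 to 3 that rose and 0 to 1 that fell. The cause was not tested, except that these fits hold fewer animals. With the replicate number as a replicate block, 13 were called, and of the 9 called genes BDH1 alone lost its call (adjusted p = 0.0713). At 15 days, leaving out each animal gave 62 to 110 calls against 126, lowest without the first vehicle animal. Between vehicle groups, 50 calls became 33 with equal medians, 13 without a trend, 151 with array weights, 32 with the replicate block and 4 to 38 without single animals. The difference between days gave 0 calls under every alternative run.

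Each of the 9 called genes kept its sign in all 15 settings. ACAA2 was called in 13, NQO1 and AKR1B10 in 12, HADHB, COX5A, ECH1, PRDX4 and PZP in 9, and BDH1 in 6. Signs turned in 8 of 120 genes. With equal array medians, GAPDH became 0.0588 and EHHADH 0.0443, and EHHADH was also 0.233 with a pseudocount of 1 and 0.029 after quantile normalization. Leaving out each animal gave -0.0446 to 0.0215 for GAPDH, -1.49 to 0.248 for ACADL, -0.487 to 0.60 for ECI1, -0.857 to 0.0592 for CD36, -0.779 to 0.727 for EHHADH, -1.38 to 0.106 for DUSP1, -1.35 to 2.17 for EGR1 and -0.383 to 1.28 for COL1A1. Of 33 list medians, 10 changed sign under some setting, all with a main value between -0.42 and 0.05, bile acids (0.18 without the second treated animal) the largest.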
